A study of Mus musculus with 2 samples.

Results

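The immediate early and dissociation response genes are 10 genes whose transcripts appear within minutes of a stimulus or of stress, *Fos*, *Fosb*, *Jun*, *Junb*, *Egr1*, *Ier2*, *Dusp1*, *Atf3*, *Nr4a1* and *Hspa1a*. They were picked by symbol from the 28692 genes counted in single cells of the mouse ventral parafacial region, a brainstem area that contains chemosensory neurons of breathing control, and all 10 had UMIs (unique molecular identifiers, 1 per captured transcript) in both libraries. The tissue came from 10-day-old C57BL/6J mice, and each of the 2 libraries pooled 8 mice (4 male and 4 female), untreated in one library and given 0.2 mg of 4OH-tamoxifen daily for 3 days in the other. 4OH-tamoxifen, the active metabolite of tamoxifen, was given to wild-type animals. The condition with no injection is the labels' batch 1 and the injected condition is batch 2, so treatment, batch and pool of mice cannot be told apart, and a single library stands for each condition, which leaves no replicates to test against. The levels and ratios of the 10 genes are therefore a description of these 2 libraries, and the genes were chosen with such values known.

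In both libraries brainstem slices were digested with a protease, warmed again and triturated before capture. After filtering, the untreated library held 3339 cells with a median of 3628 UMIs and the 4OH-tamoxifen library 8558 cells with a median of 2411 UMIs. The filtered sets had 32 cell barcodes in common. Cells were assigned to 9 classes by 1 marker gene each, and each class was checked with its marker list. Microglia markers beside *C1qa* were detected at 8 of 8 in *C1qa* cells, endothelial markers at 7 of 7 in *Cldn5* cells, astrocyte markers at 7 of 7 in *Aqp4* cells, oligodendrocyte precursor markers at 6 of 6 in *Pdgfra* cells, oligodendrocyte markers at 6 of 7 in *Mog* cells and pericyte markers at 7 of 7 in *Kcnj8* cells. The inhibitory (*Slc32a1*), glutamatergic (*Slc17a6*) and cholinergic (*Chat*) neuron gates also carried their own lists, but they were small, with 33, 16 and 11 untreated cells and 189, 88 and 47 cells after 4OH-tamoxifen. No class was assigned to 60.1% of untreated and 61.5% of 4OH-tamoxifen cells.

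Immediate early genes need no new protein to be transcribed: kinases that are already in the cell phosphorylate transcription factors that are already on the promoter. *Fos*, *Fosb*, *Jun* and *Junb* encode subunits of the AP-1 dimer, *Egr1* a zinc finger factor, *Atf3* a bZIP factor of the stress response and *Nr4a1* an orphan nuclear receptor. *Ier2* encodes a small nuclear protein, *Dusp1* a phosphatase that switches off the same MAP kinases, and *Hspa1a* the stress-inducible member of a heat shock chaperone family. In brain tissue several of these genes, among them *Fos* and *Egr1*, mark neurons that were recently active. In dissociated tissue the group is also known as a mark of warm enzymatic digestion.

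The RefSeq promoter table (GRCm38.p6) holds 8 of the 10 genes, all but *Egr1* and *Ier2*. The 250 bases before the start site are shown for 4 genes whose patterns differ below: *Fos* at chr12:85473640-85473889 on the plus strand, *Junb* at chr8:84978749-84978998 on the minus strand, *Dusp1* at chr17:26508473-26508722 on the minus strand and *Nr4a1* at chr15:101266596-101266845 on the plus strand. Capitals mark the half-site TGACG of the cAMP response element on either strand (CGTCA when read on the other), the full element TGACGTCA, which overlaps 2 half-sites, and the TATAA box.
Fos: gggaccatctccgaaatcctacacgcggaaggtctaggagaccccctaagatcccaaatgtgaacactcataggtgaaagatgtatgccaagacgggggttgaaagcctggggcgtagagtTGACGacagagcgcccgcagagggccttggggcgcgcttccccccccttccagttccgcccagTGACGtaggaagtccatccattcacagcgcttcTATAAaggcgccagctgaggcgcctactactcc
Junb: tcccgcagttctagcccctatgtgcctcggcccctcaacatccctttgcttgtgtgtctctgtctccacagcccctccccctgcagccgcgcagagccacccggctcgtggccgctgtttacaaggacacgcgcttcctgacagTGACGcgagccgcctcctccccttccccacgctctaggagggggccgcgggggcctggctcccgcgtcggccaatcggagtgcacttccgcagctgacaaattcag
Dusp1: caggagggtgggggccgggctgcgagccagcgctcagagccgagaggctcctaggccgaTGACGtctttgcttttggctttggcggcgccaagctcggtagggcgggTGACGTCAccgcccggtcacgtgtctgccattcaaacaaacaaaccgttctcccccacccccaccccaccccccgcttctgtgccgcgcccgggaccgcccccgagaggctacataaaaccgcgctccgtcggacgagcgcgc
Nr4a1: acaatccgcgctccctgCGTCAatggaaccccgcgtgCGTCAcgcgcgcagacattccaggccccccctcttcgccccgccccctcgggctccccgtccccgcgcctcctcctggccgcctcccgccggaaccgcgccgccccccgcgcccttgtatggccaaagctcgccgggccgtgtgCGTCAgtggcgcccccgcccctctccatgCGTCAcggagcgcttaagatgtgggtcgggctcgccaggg
The half-site was found in 6 of the 8 promoters (*Fos*, *Fosb*, *Junb*, *Dusp1*, *Atf3* and *Nr4a1*) and in 17.8% of 32851 promoters of the same length, and *Nr4a1* carried 4 copies. The full element TGACGTCA was found in *Dusp1*, 143 bases before its start, and in 1.55% of all promoters. *Fos* was the gene with TATAA, which 22.8% of all promoters hold. The AP-1 letters TGANTCA (6.75% of promoters), the CArG box of serum response factor (1.47%) and the heat shock element (0.466%) were in none of the 8 windows, while the Sp1 letters GGGCGG or their reverse were in 7 of 8, all but *Junb*, and in 32.7% of all promoters. These are matches of letters and were not tested as binding sites. Each motif, the heat shock element among them, was searched as a fixed pattern within the 250 bases before the start site. An element with a mismatch to the pattern, or one farther from the start, would be missed. A motif found in none of the 8 windows can therefore still be present in these promoters in another form or position.

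Among the 9 classes the summed level of the 10 genes was highest in *C1qa* cells, the microglia-like class, with *Pdgfra*, *Cldn5* and *Kcnj8* cells next and neurons, astrocytes and oligodendrocytes below. In *C1qa* cells their UMIs summed to 5089.5 per 1000000 UMIs (CPM; 95% Poisson interval 4938 to 5245) in the untreated and 2884 (2769 to 3002) in the 4OH-tamoxifen library. *Pdgfra* cells had 1643 and 608 CPM, and *Cldn5* cells 1594 and 976 CPM. *Kcnj8* cells, of which there were 25 and 20, had 736 and 612 CPM. The summed level was 412 and 187 CPM in *Slc17a6* neurons, 302 and 269.5 CPM in *Chat* neurons and 114 and 116 CPM in *Slc32a1* neurons. *Aqp4* cells had 228 and 167 CPM, and *Mog* cells had 172 and 123 CPM. *C1qa* cells were thus apart from every other class in both libraries, while *Pdgfra* and *Cldn5* cells overlapped in the untreated library and *Cldn5*, *Kcnj8* and *Pdgfra* cells formed an overlapping run after 4OH-tamoxifen. Cells in no class held most of the members' UMIs, 11319 of 18037 and 7880 of 12576, at a summed level of 1018 and 423 CPM. All intervals here cover counting error only, not differences between mice, pools or preparations.

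**Figure D1:**
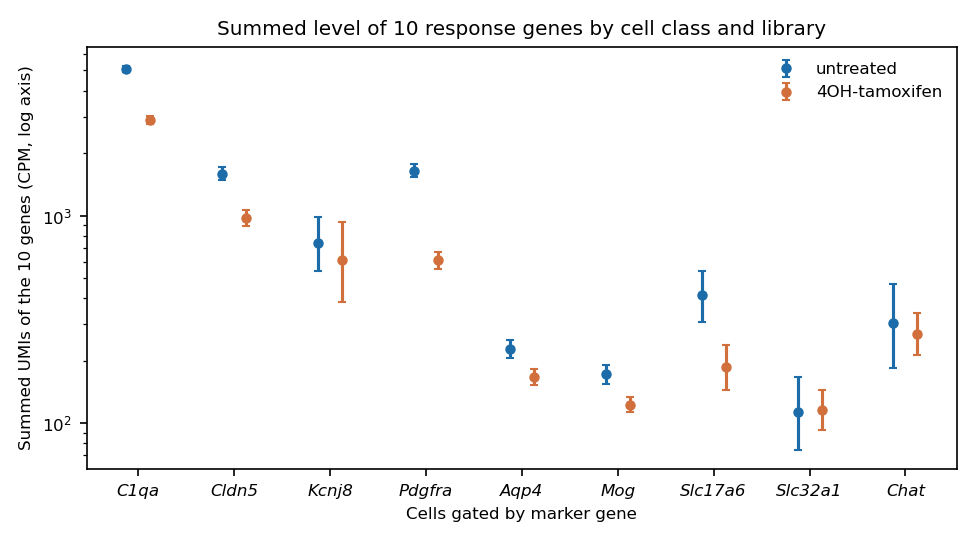
Summed level of the 10 genes (CPM, log axis) in cells gated by each of the 9 markers, for the untreated (blue) and 4OH-tamoxifen (orange) libraries. Points are the CPM of UMIs summed over cells and bars the 95% Poisson intervals. *C1qa* cells are highest in both libraries at 5089.5 and 2884 CPM, and the blue point lies above the orange in every class but *Slc32a1*.

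Among the AP-1 subunits, *Junb* and *Jun* had the highest levels of all 10 genes in *C1qa* cells. *Junb* measured 1412 CPM in the untreated library and 712 CPM in the other. The next class was *Kcnj8* at 208 and 111 CPM, and *Cldn5* cells had 187 and 102 CPM. *C1qa* cells exceeded *Kcnj8* cells 6.79-fold (3.96 to 12.8) and 6.39-fold (2.48 to 23.5), so *Junb* was the AP-1 gene with the largest step below its highest class.

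*Jun* had at least 8 UMIs in every class of both libraries. It measured 1215 and 622 CPM in *C1qa*, 609.9 and 226 CPM in *Pdgfra* and 419.5 and 204 CPM in *Cldn5* cells. *Chat* neurons had 166 (83.0 to 297) and 173 (127 to 229) CPM, above the 39.4 and 52.0 CPM of *Slc32a1* neurons. In *Mog* cells *Jun* measured 87.8 and 76.2 CPM and in *Aqp4* cells 94.3 and 63.9 CPM. It was the member with the most UMIs in *Mog* and *Aqp4* cells of both libraries.

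*Fos* measured 738 and 459 CPM in *C1qa* cells and 334 and 140.3 CPM in *Pdgfra* cells. In *Slc17a6* neurons, 12 and 16 UMIs gave 97.0 (50.1 to 169) and 46.7 (26.7 to 75.8) CPM, whose intervals overlap that of the next class in the order, *Kcnj8* cells in the untreated and *Aqp4* cells in the 4OH-tamoxifen library. *Cldn5* cells, although high in *Jun*, had 51.5 and 10.8 CPM of *Fos*. *C1qa* cells stood above *Pdgfra* cells 2.21-fold (1.85 to 2.65) and 3.27-fold (2.63 to 4.10).

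*Fosb* was the least abundant AP-1 gene, at 103 and 68.9 CPM in *C1qa* cells. *Pdgfra* cells had 59.5 and 8.02 CPM and *Cldn5* cells 38.1 and 7.17 CPM. In *Chat* neurons there were 0 UMIs in both libraries, which allows up to 45.3 and 10.8 CPM (3 UMIs). *C1qa* and *Pdgfra* intervals did not overlap in the 4OH-tamoxifen library and did so in the untreated library.

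*Egr1* had the same top classes as *Fos*. It measured 632 and 324 CPM in *C1qa* cells, 349 and 104 CPM in *Pdgfra* cells and 59.1 and 39.5 CPM in *Cldn5* cells. *Slc17a6* neurons had 72.8 (33.3 to 138) and 23.3 (10.1 to 46.0) CPM, from 9 and 8 UMIs. Across the 18 combinations of class and library, *Fos* and *Egr1* had the most similar profiles of any 2 members (Pearson r = 0.933 of log2 of CPM plus 10), a description of points that share libraries and depth.

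*Ier2* was high in the vascular as well as the microglia-like cells. Its level was 473 and 256 CPM in *C1qa*, 313 and 196 CPM in *Cldn5* and 176 and 167 CPM in *Kcnj8* cells. The step from *C1qa* to *Cldn5* cells was 1.51-fold (1.26 to 1.83) and 1.31-fold (1.04 to 1.67). *Mog* cells had 3.70 and 4.58 CPM, from 7 and 22 UMIs.

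*Dusp1* was the member whose highest class was not *C1qa* in either library. *Cldn5* cells had 475 (418 to 538) and 348 (301 to 401) CPM and *C1qa* cells 297 (262 to 337) and 239 (207 to 275) CPM. The level in *Cldn5* cells was 1.60-fold (1.33 to 1.91) and 1.45-fold (1.19 to 1.78) that in *C1qa* cells. The other 7 classes had 64.7 CPM or less, in an order of overlapping neighbours.

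*Atf3* was higher in *C1qa* cells than in any other class. It measured 158 (132 to 187) and 129 (106 to 156) CPM in *C1qa* cells. *Cldn5* cells came next at 15.3 and 21.5 CPM, 10.3-fold (5.09 to 24.4) and 6.01-fold (3.30 to 11.99) lower. In *Slc17a6* neurons there were 0 UMIs of *Atf3* in both libraries, which allows up to 24.3 and 8.75 CPM. *Kcnj8* cells and *Chat* neurons also had 0 UMIs in both libraries. This allows up to 48.0 and 83.5 CPM in *Kcnj8* cells and up to 45.3 and 10.8 CPM in *Chat* neurons. *Pdgfra*, *Aqp4* and *Mog* cells held between 1 and 5 UMIs each per library.

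*Nr4a1* had no single highest class. In the untreated library it measured 40.4 (13.1 to 94.3) CPM in *Slc17a6*, 34.3 (20.3 to 54.3) in *Cldn5*, 34.0 (19.4 to 55.2) in *Pdgfra* and 20.3 (11.8 to 32.5) in *C1qa* cells, and these intervals overlap. In the 4OH-tamoxifen library the order was *C1qa* with 56.8 (41.7 to 75.5), *Cldn5* with 44.8 (29.0 to 66.2) and *Pdgfra* with 33.4 (21.6 to 49.3) CPM. Its profile was the least like the mean of the 10 members (r = 0.586).

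*Hspa1a*, the chaperone, had the lowest level over all filtered cells, 6.18 and 2.45 CPM. It measured 41.8 and 16.9 CPM in *C1qa* cells, from 35 and 14 UMIs, with *Kcnj8* cells next in the untreated (16.0 CPM, 1 UMI) and *Slc17a6* neurons next in the 4OH-tamoxifen library (5.83 CPM, 2 UMIs), both with intervals that overlap that of *C1qa* cells. The gene has a near-identical copy, *Hspa1b*, whose reads a counter can fail to assign, and *Hspa1b* measured 0.353 and 0.369 CPM over all cells, so the level of *Hspa1a* is uncertain.

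**Figure D2:**
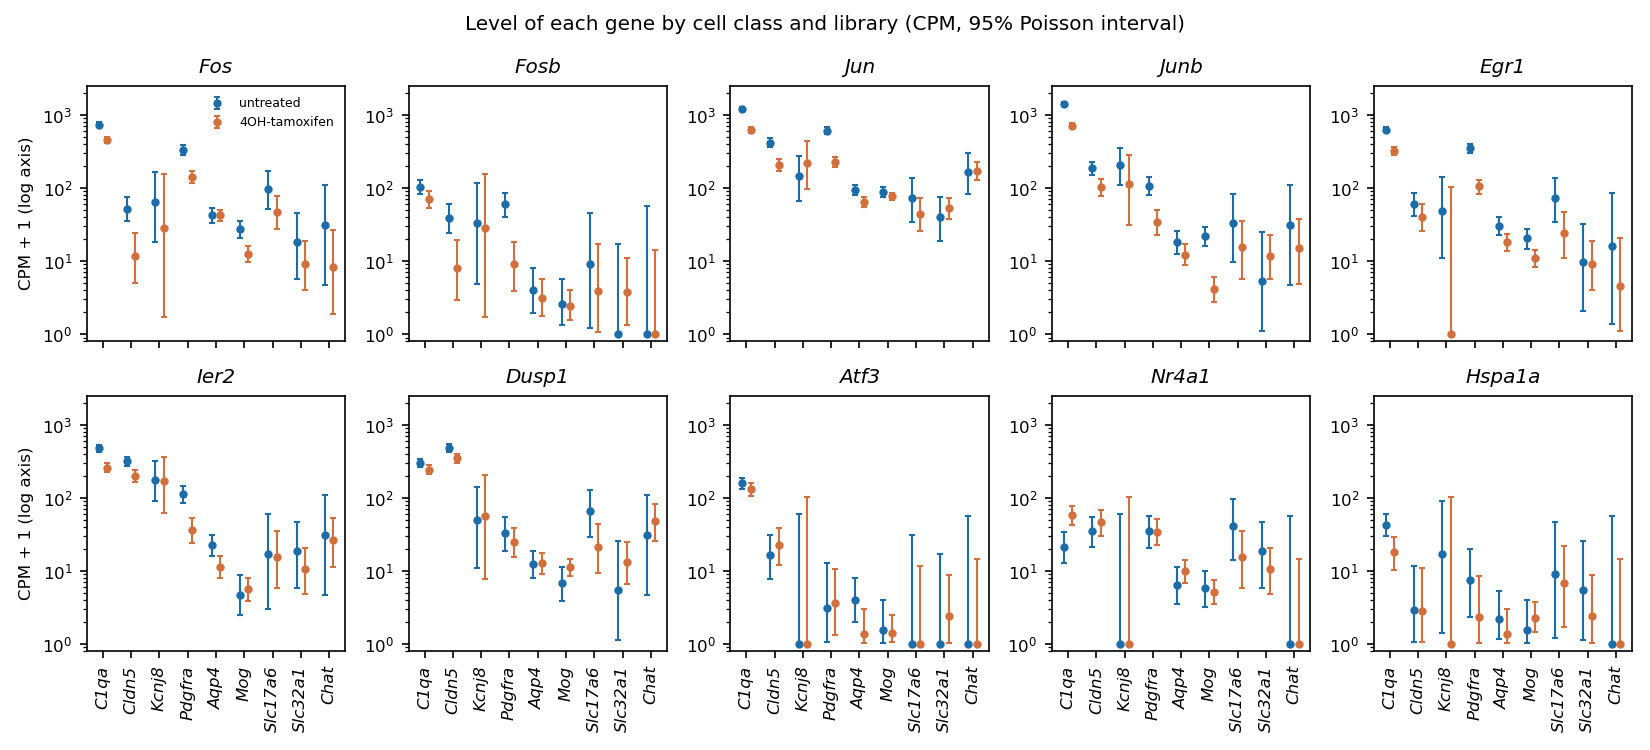
Level of each of the 10 genes (CPM plus 1, log axis) by class for the untreated (blue) and 4OH-tamoxifen (orange) libraries, with 95% Poisson intervals. *Junb* and *Atf3* peak in *C1qa* cells, *Dusp1* peaks in *Cldn5* cells at 475 and 348 CPM, and *Nr4a1* and *Hspa1a* have no separate peak; points at the bottom are classes with 0 UMIs.

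The mix of members differed between classes. Each UMI stands for the 3′ end of 1 transcript, so UMIs of different genes can be set side by side without a correction for length, although capture can differ between genes. *Jun* over *Fos* was 1.65 (1.49 to 1.82) and 1.36 (1.18 to 1.55) in *C1qa* cells and 1.83 and 1.61 in *Pdgfra* cells. In *Cldn5* cells the same quotient was 8.15 (5.45 to 12.6) and 19.0 (8.47 to 52.9), so the endothelial-like cells of both libraries were rich in *Jun* and poor in *Fos*. *Dusp1* over *Fos* was 9.22 and 32.3 in *Cldn5* cells, 0.403 and 0.521 in *C1qa* cells and 0.0955 and 0.171 in *Pdgfra* cells. *Junb* over *Jun* was above 1 in *C1qa* cells, at 1.16 (1.07 to 1.27) and 1.14 (1.014 to 1.29), and was 0.174 and 0.148 in *Pdgfra* and 0.185 and 0.177 in *Aqp4* cells. *Jun* alone held 51.1% and 62.0% of the members' UMIs in *Mog* cells.

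**Figure D3:**
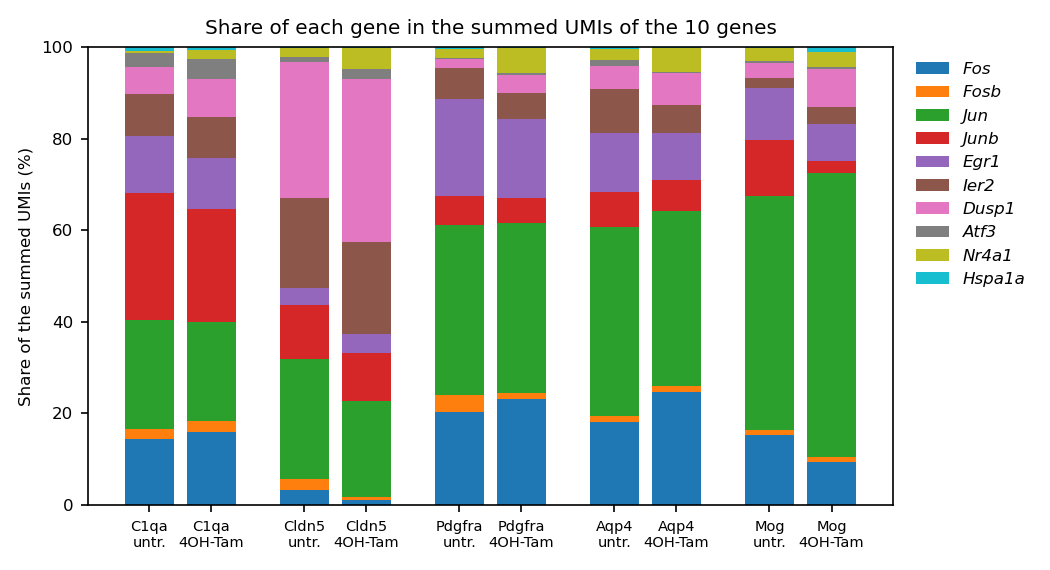
Share of each gene (percent) in the summed UMIs of the 10 genes for 5 classes in both libraries, as stacked bars. *Dusp1* takes 29.8% and 35.7% in *Cldn5* cells, *Junb* takes 27.7% and 24.7% in *C1qa* cells, and *Jun* takes 51.1% and 62.0% in *Mog* cells.

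Between libraries, the members' transcripts were higher in untreated than in 4OH-tamoxifen cells of most classes. Over all filtered cells the sum was 1062 against 422 CPM, a ratio of 2.51 (2.46 to 2.57), and 9 of the 10 members were past 2-fold, all higher in the untreated library, where 5.33% of 15303 genes with at least 20 UMIs passed 2-fold in either direction and 3.67% were that much higher in the untreated cells. The exception was *Nr4a1*, at 19.1 and 17.1 CPM. This comparison also carries the make-up of the libraries, as *C1qa* cells made up 5.96% of untreated and 3.94% of 4OH-tamoxifen cells. Within classes 45 of the 90 pairs of member and class had at least 20 UMIs, 36 of them were higher in the untreated library, and 15 passed 2-fold, 14 of these higher in untreated cells, where by class 4.52% to 19.6% of all genes tested passed 2-fold in either direction. Over all genes tested in a class, the median log2 ratio lay between -0.08 (*Chat*) and 0.08 (*Kcnj8*). The 15 pairs became 24 with a gate of 1 UMI and 6 in cells thinned to 2000 UMIs, where the minimum of 20 UMIs applies to the thinned UMIs. In the cells of no class the summed ratio was 2.41 (2.34 to 2.48).

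*Pdgfra* cells had a summed ratio of 2.70 (2.40 to 3.04), the highest of the 9 classes but with an interval that overlaps that of *Slc17a6* neurons (2.21, 1.498 to 3.24), whose ratio after thinning was 2.93 (1.42 to 5.87) against 2.63 (2.21 to 3.14) in *Pdgfra* cells. There 6 of the 8 members counted were past 2-fold, all higher in untreated cells, beside 7.73% of all genes tested in the class past 2-fold in either direction and 4.18% that were higher in untreated cells. *Fosb* was 59.5 against 8.02 CPM (ratio 7.42, 3.01 to 21.9), from 28 and 6 UMIs. *Egr1* was 349 against 104 CPM (3.34, 2.54 to 4.44), and *Jun* was 609.9 against 226 CPM (2.70, 2.23 to 3.29). *Junb* and *Ier2* were both 3.18 times higher in untreated cells, and *Fos* was 2.38 times higher. In thinned cells *Junb* (1.97) and *Ier2* (1.85) were below 2-fold, as they were with at least 1200 genes per cell (1.88 and 1.80). After thinning *Fosb* was at 19.5 (3.08 to 814) and *Dusp1* at 3.26 (0.987 to 13.9), each from fewer UMIs than the minimum of 20. Without thinning *Dusp1* (1.33, 0.622 to 2.78) and *Nr4a1* (1.02, 0.508 to 1.98) had intervals that include 1. The median log2 ratio of the counted members was 1.55, against 0.06 over all genes tested. Fibroblast markers, which *Pdgfra* gates can admit, were at 865 against 154 CPM in the *Pdgfra* cells, with 0 of 4 markers at 0, but in few cells (6.38% and 2.95%). In the *Pdgfra* cells with no fibroblast UMI the ratio of the summed level was 2.67 (2.37 to 3.02).

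In *Cldn5* cells the summed ratio was 1.63 (1.46 to 1.82) and 3 of 9 counted members passed 2-fold, all higher in untreated cells, beside 6.90% of all genes tested in either direction and 3.34% in this one. *Fos* was 51.5 against 10.8 CPM (4.78, 1.94 to 14.2) and *Fosb* was 38.1 against 7.17 CPM (5.32, 1.78 to 21.4), each from 6 UMIs or fewer in the 4OH-tamoxifen library. *Jun* was 419.5 against 204 CPM (2.05, 1.63 to 2.60), and 1.83 times higher with at least 1200 genes per cell. *Dusp1*, the most abundant member there, had a ratio of 1.36 (1.13 to 1.65). *Atf3* (0.709) and *Nr4a1* (0.765) had intervals that include 1, and in thinned cells *Atf3* was on the other side of 1 at 5.42 (0.606 to 256). Pericyte markers were at 788 and 1394 CPM in these cells and in 39.8% and 52.8% of them, with 0 of 7 markers at 0, and in the cells with no pericyte UMI the summed ratio was 1.51 (1.29 to 1.77).

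In *C1qa* cells the summed ratio was 1.76 (1.68 to 1.86), and 2 of the 10 members passed 2-fold in opposite directions, beside 8.15% of all genes tested (2.61% higher in untreated and 5.54% higher in 4OH-tamoxifen cells). The median log2 ratio of the members was 0.79, against -0.02 over all genes tested. *Junb* (1.98, 1.80 to 2.19), *Jun* (1.95, 1.75 to 2.175), *Egr1* (1.95, 1.68 to 2.27) and *Ier2* (1.85, 1.56 to 2.19) lay just inside 2-fold. *Hspa1a* lay outside it, at 2.47 (1.30 to 4.97), but at 1.78 when a cell was assigned by the marker with the most UMIs. *Fos* had a ratio of 1.61 (1.41 to 1.83), and *Dusp1* 1.24 (1.03 to 1.51). *Nr4a1* ran against the others, with 20.3 CPM against 56.8 CPM from 17 and 47 UMIs, a ratio of 0.358 (0.192 to 0.634). Border macrophage markers were at 1328 and 687 CPM in *C1qa* cells and in 49.7% and 38.6% of them, with 0 of 4 markers at 0. In *C1qa* cells with none of these UMIs (100 and 207 cells) the summed ratio was 1.74 (1.62 to 1.87) and *Nr4a1* was at 0.282 (0.0953 to 0.698), while *Dusp1* went to the other side of 1, at 0.798 (0.584 to 1.08).

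**Figure D4:**
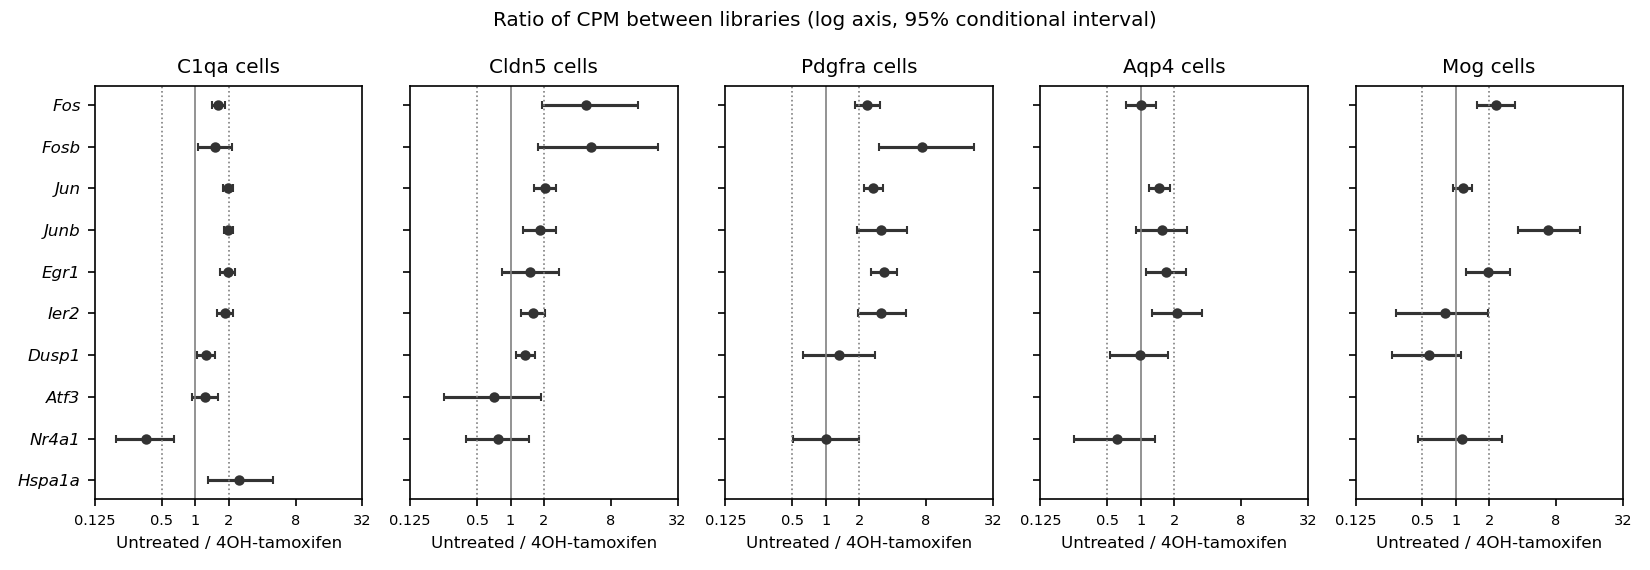
Ratio of CPM, untreated over 4OH-tamoxifen (log axis), for the members with at least 20 UMIs over both libraries in 5 classes, with exact 95% conditional intervals. The solid line marks a ratio of 1 and the dotted lines 0.5 and 2. Most points lie to the right of 1, and *Nr4a1* in *C1qa* cells lies at 0.358.

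*Aqp4* and *Mog* cells had summed ratios of 1.36 (1.19 to 1.56) and 1.40 (1.22 to 1.60). In thinned cells the *Mog* ratio was 1.80 (1.39 to 2.33), above those of *C1qa* (1.66) and *Cldn5* cells (1.64) with overlapping intervals, and with at least 1200 genes per cell the *Aqp4* ratio was 1.17 (0.983 to 1.39), an interval that includes 1. In *Aqp4* cells 1 of 7 counted members, *Ier2* (21.6 and 10.2 CPM, ratio 2.11, 1.26 to 3.57), was past 2-fold beside 5.10% of all genes tested (1.84% higher in untreated cells). In thinned cells the *Ier2* ratio was 1.04 (0.480 to 2.22), at 13.9 and 13.4 CPM, and the class then had no member past 2-fold among those counted. *Fos* was at 41.5 and 41.3 CPM. In *Mog* cells 2 of 7 were past 2-fold, both higher in untreated cells, beside 4.52% of all genes tested (1.89% in that direction). *Junb* was 21.1 against 3.12 CPM there (6.77, 3.66 to 13.2), from 40 and 15 UMIs, and *Fos* was 26.4 against 11.5 CPM (2.31, 1.54 to 3.45). The *Junb* ratio was 3.31 when a cell was assigned by the marker with the most UMIs, and 17.4 in thinned cells. Microglia markers were at 97.3 and 98.3 CPM in *Mog* cells of the 2 libraries, in 51.6% and 38.3% of cells, and their part in these low levels was not tested.

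The neuron classes gave few UMIs. In *Slc17a6* neurons the summed ratio was 2.21 (1.498 to 3.24), from 51 and 64 UMIs, and 1 of 2 counted members, *Fos*, was past 2-fold at 2.08 (0.898 to 4.68), beside 14.5% of all genes tested (4.46% higher in untreated cells). With at most 10% mitochondrial UMIs the summed ratio was 1.56 (0.752 to 3.06), an interval that includes 1, and *Fos* was on the other side of 1 at 0.853 (0.0897 to 4.12). In *Slc32a1* neurons (0.979, 0.605 to 1.53) and *Chat* neurons (1.12, 0.648 to 1.86) the intervals include 1 and *Jun* was the only member counted, at ratios of 0.758 and 0.963, where 9.46% and 19.6% of all genes passed 2-fold. The *Chat* ratio was 2.01 (1.38 to 2.89) when a cell was assigned by the marker with the most UMIs, and the *Slc32a1* ratio was 1.72 (0.783 to 3.40) with at most 10% mitochondrial UMIs. In *Kcnj8* cells no member reached 20 UMIs, 13.0% of the genes tested passed 2-fold, and the summed ratio was 1.20 (0.708 to 2.098). It was 1.62 (1.07 to 2.49) with a gate of 1 UMI and 1.70 (1.16 to 2.55) with the gate by the most UMIs, both intervals above 1, and 0.803 (0.303 to 2.68) with at least 1200 genes per cell.

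The 3 members with the most UMIs, *Jun*, *Junb* and *Fos*, held 61.5% of the members' UMIs. Without them the summed ratio was 2.84 (2.33 to 3.48) in *Pdgfra*, 1.58 (1.45 to 1.72) in *C1qa* and 1.42 (1.24 to 1.63) in *Cldn5* cells. In *Mog* cells it was 1.14 (0.844 to 1.52), an interval that includes 1.

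Single cells carried several members at once in the microglia-like class. Cells were thinned to a common depth of 2000 UMIs, which dropped the shallower ones (9 of 199 untreated and 114 of 337 4OH-tamoxifen *C1qa* cells). The median *C1qa* cell had UMIs of 5 and 4 of the 10 genes, and 84.7% (78.8 to 89.5, Clopper-Pearson) and 69.1% (62.5 to 75.1) had at least 3. In *Pdgfra* cells, where 12 of 141 and 233 of 373 cells were left out, at least 3 genes were seen in 41.9% (33.2 to 50.9) and 12.1% (7.24 to 18.7). In *Cldn5* cells (15 of 123 and 46 of 163 left out) it was 41.7% (32.3 to 51.5) and 14.5% (8.70 to 22.2). No class is known to lack these genes, so *Aqp4* cells are given as a low class for comparison. They had at least 3 genes in 0.996% and 1.04% of cells (66 of 568 and 636 of 1309 left out). *Aqp4* was not the lowest class in either library, as *Slc32a1* neurons had 0% and 0.581%. Median depths before thinning were 2667.5 and 2008 UMIs in *Aqp4* cells against 4057 and 2257 UMIs in *C1qa* cells.

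Without thinning, at least 3 genes were seen in 89.9% and 68.2% of *C1qa*, 58.2% and 9.12% of *Pdgfra*, 65.9% and 33.7% of *Cldn5* and 2.11% and 1.07% of *Aqp4* cells.

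By gene, the share of thinned *C1qa* cells with a UMI was 84.7% and 71.7% for *Junb*, 78.4% and 66.4% for *Jun*, 61.6% and 49.8% for *Fos* and 3.16% and 9.87% for *Nr4a1*. Before thinning the same shares were 91.0% and 71.2% for *Junb*, 91.0% and 68.2% for *Jun*, 73.9% and 51.3% for *Fos* and 8.54% and 11.3% for *Nr4a1*. *Jun* was seen in 69.8% and 30.7% of thinned *Pdgfra* cells, and in 14.9% and 10.5% of thinned *Aqp4* cells. *Junb* was seen in 16.3% and 10.7% of *Pdgfra* cells and in 2.59% and 2.82% of *Aqp4* cells.

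Among 4OH-tamoxifen *C1qa* cells, *Egr1* was found in 56.8% (47.0 to 66.1) of the 111 cells with a *Fos* UMI and in 35.7% (26.9 to 45.3) of the 112 without. In the untreated library the shares were 65.0% (55.6 to 73.5) of 117 cells and 49.3% (37.4 to 61.3) of 73 cells, with intervals that overlap. In untreated *Aqp4* cells *Egr1* was found in 30.0% (14.7 to 49.4) of the 30 cells with *Fos* and in 2.12% (1.02 to 3.86) of the 472 without. In untreated *Pdgfra* cells *Jun* was found in 68.9% of the 61 cells with *Fos* and in 70.6% of the 68 without, while in the 4OH-tamoxifen library it was found in 56.0% (34.9 to 75.6) of 25 and in 25.2% (17.6 to 34.2) of 115.

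**Figure D5:**
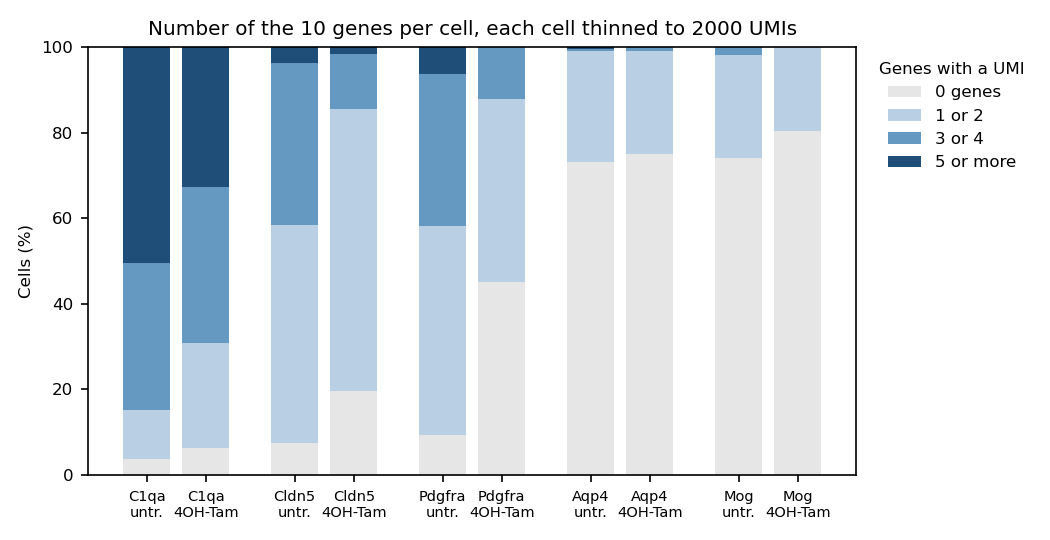
Share of cells (percent) with UMIs of 0, 1 or 2, 3 or 4, and 5 or more of the 10 genes, each cell thinned to 2000 UMIs, in 5 classes of both libraries. At least 3 genes are seen in 84.7% and 69.1% of *C1qa* cells and in 0.996% and 1.04% of *Aqp4* cells.

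Other genes of the same response gave a milder difference between libraries. Of 39 further immediate early genes, 36 had at least 20 UMIs over all filtered cells, 31 of these were higher in untreated cells and 5 passed 2-fold in that direction (3.67% of all genes), with a median ratio of 1.55. *Rhob*, a small GTPase (334 and 263 CPM), and *Jund*, the constitutive Jun family member (297 and 216 CPM), were the most abundant, followed by the Krüppel-like factor *Klf2* (183 and 93.3 CPM). *Ier5* (81.8 and 29.8 CPM, 2.75) and the antiproliferative gene *Btg2* (65.8 and 26.7 CPM, 2.47) had the largest ratios among those with at least 50 CPM. Within *C1qa* cells, 25 of 29 were higher in untreated cells and 0 passed 2-fold. In *Pdgfra* cells 15 of 19 were higher and 5 passed 2-fold in that direction (4.18% of all genes). In *Cldn5* cells 13 of 23 were higher in untreated cells, 1 passed 2-fold in that direction and 2 passed it in the other (3.34% and 3.56% of all genes tested in the class), *Per1*, a clock gene and glucocorticoid target (21.0 and 71.7 CPM), and *Trib1* (13.3 and 32.3 CPM), both named after their values were seen.

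Genes that share only part of the response differed less over all filtered cells. Of 16 heat shock genes beside *Hspa1a*, 15 were counted over all cells, 9 were higher in untreated cells and 0 passed 2-fold, with a median ratio of 1.03. The constitutive chaperones *Hsp90ab1* (909.7 and 808 CPM) and *Hspa8* (889 and 811 CPM) and the inducible *Hsp90aa1* (405 and 392 CPM) led the list. *Hspb1* (1.61) and *Hspa5*, the endoplasmic reticulum chaperone (1.45), had the largest ratios among those with at least 50 CPM in 1 library, and *Hspa4l* (0.837) and *Hspa4* (0.842) the lowest. Of 10 neuronal activity genes, 4 were higher in untreated cells and 0 passed 2-fold (median 0.928), with the secretogranin *Scg2* at 49.3 and 59.1 CPM, the neuropeptide precursor *Vgf* at 44.3 and 47.9 CPM and *Rgs2*, a regulator of G protein signalling, at 49.5 and 32.1 CPM. In neurons the same list varied by class. In *Slc32a1* neurons 4 of 5 counted genes were higher in untreated cells and 0 passed 2-fold. In *Slc17a6* neurons 4 of 5 were higher and 1 passed 2-fold in that direction, beside 4.46% of all genes tested in the class. In *Chat* neurons both counted genes were at least 2-fold higher after 4OH-tamoxifen (median ratio 0.354), as were 12.7% of all genes tested in that class. Among 8 genes used in all cells, 7 were higher in untreated cells and 0 passed 2-fold (median 1.10), with *Actb* at 3811 and 3802 CPM, *Eef1a1* at 1795 and 1624 CPM, *Ubb* at 1793 and 1308 CPM, *Ppia* at 1728 and 1493 CPM and *Malat1* at 58173 and 69846 CPM.

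Outside these lists, the genes whose levels over the 18 combinations of class and library were most like the mean of the 10 members were *Capzb* (r = 0.926), *Arpc2* (0.924), *B2m* (0.924), *0610010K14Rik* (0.919) and *Gnb2l1* (0.916), among 6575 genes with at least 50 CPM in at least 1 class in both libraries. *Capzb* encodes an actin capping protein subunit, *Arpc2* a subunit of the Arp2/3 complex and *B2m* the light chain of MHC class I. Among the members themselves the closest partners were *Fos* with *Egr1* (0.933), *Fosb* with *Junb* (0.928), *Ier2* with *Junb* (0.925), *Jun* with *Junb* (0.874), *Dusp1* with *Ier2* (0.864), *Atf3* with *Junb* (0.826) and *Hspa1a* with *Fos* (0.772). *Nr4a1* was closest to *Egr1* (0.676) and had the lowest r of any pair with *Hspa1a* (0.347). *Dusp1* and *Fos* (0.418) were the least alike of the pairs without *Nr4a1*.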

How the data were processed

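Ventral parafacial cells were profiled with 10x v2 chemistry, which counts 3′ ends. The authors converted reads with bcl2fastq 2.18.0.12 and counted UMIs with Cell Ranger 2.2.0 on mm10 (GRCm38). The deposited values are counts of UMIs per gene and barcode called as a cell, without normalization, and total 18496942 UMIs in 3767 barcodes (untreated) and 34704167 UMIs in 10241 barcodes (4OH-tamoxifen). Groups came from the labels' condition field, and the number of mice, age and dose from the study's methods.

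The study's filters were applied to each library: Scrublet in scanpy 1.11.5 (6 and 544 doublets removed), at least 800 genes, at most 50 hemoglobin UMIs and at most 20% mitochondrial UMIs. Scrublet marked 0.159% of the untreated barcodes, under the 5.31% of the other library, so doublets may remain in the untreated cells. A cell entered a class with at least 1 UMI of *Slc32a1*, *Slc17a6* or *Chat*, or at least 2 UMIs of *Aqp4*, *Pdgfra*, *Mog*, *C1qa*, *Cldn5* or *Kcnj8*, and 0 UMIs of the other 8 markers. A list marker was detected at 2 times the level of the other cells (10 CPM added to both) with UMIs in at least 10% of cells. UMIs were summed per class and library and scaled to 1000000 UMIs of the class (CPM). Intervals are exact at 95% (Poisson for CPM, Clopper-Pearson for shares, conditional for ratios, scipy 1.17.1). They were tested on simulated counts drawn from the same models, which checks the calculation and not whether real cells follow those models. In thinned *C1qa* cells the variance of the members' UMIs per cell was 4.01 (untreated) and 2.75 (4OH-tamoxifen) times the mean. Intervals for summed UMIs can therefore be too narrow. All intervals and the limit of 3 counts used for 0 UMIs cover counting error only. Ratios are untreated over 4OH-tamoxifen, and a gene was counted in a class with at least 20 UMIs over both libraries.

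The members and the wider lists were chosen with earlier results of these data known. All members are named. From each wider list the 3 genes with the highest CPM over all filtered cells are named, with up to 2 genes having the largest ratio in each direction among those that reached 50 CPM in one library and 20 UMIs in the library with the lower level, and the 5 genes most like the members' mean profile. Promoters come from RefSeq (GRCm38.p6). The alternatives changed doublet removal, filters, gates, depth, summing, scaling, denominators, shared barcodes, the UMI minimum, the fold and the log scale. A set of 3 more, which leave out cells with UMIs of border macrophage, fibroblast or pericyte markers, was chosen after seeing the data. Cells in no class entered the values over all filtered cells and are given apart only as a summed level and ratio.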

Additional observations from a re-analysis of the deposited data

How the results depend on the processing

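With 1 library per condition no replicate could be left out. No paired analysis was possible because each condition has 1 library and the labels give no replicate numbers. The summed ratio over all filtered cells was 2.51 and became 3.07 with at least 1200 genes per cell, 2.78 with at most 10% mitochondrial UMIs and 2.39 as the mean of the cells' own CPM. In *C1qa* cells (1.76) it became 2.00 with at least 1200 genes, 1.91 with a gate of 1 UMI, 1.88 with the gate by the marker with the most UMIs and 1.66 in cells thinned to 2000 UMIs. In *Mog* cells (1.40) it became 1.61 with a gate of 1 UMI, 1.80 after thinning and 1.67 as the mean of the cells' CPM. *Aqp4* cells (1.36) gave 1.17 (0.983 to 1.39, which includes 1) with at least 1200 genes, *Cldn5* cells (1.63) gave 1.83 as the mean of the cells' CPM, *Chat* neurons (1.12) gave 2.01 (1.38 to 2.89, above 1) with the gate by the most UMIs, and *Slc32a1* neurons (0.979) gave 1.72, on the other side of 1, with at most 10% mitochondrial UMIs, which left 7 untreated cells. The *Pdgfra* ratio stayed between 2.50 and 2.77 under all alternatives run. The 15 pairs of member and class past 2-fold became 24 with a gate of 1 UMI, 6 after thinning, 36 with no minimum of UMIs and 28 at a fold of 1.5. The other 119 summed ratios and counts moved by less than their counting interval or, for counts, 1.5 times. Those intervals are wide in small classes, where *Kcnj8* cells (1.20) ranged from 0.803 to 1.84 and *Slc17a6* neurons (2.21) from 1.55 to 2.93. Of 687 alternative values for 55 ratios of single members, 654 stayed on the same side of 1. *Dusp1* in *C1qa* cells went from 1.24 to 0.798 in cells without border macrophage UMIs. *Egr1* in *Cldn5* cells went from 1.498 to 0.810 in cells without pericyte UMIs. The 5 genes most like the members' mean were shared under both alternatives. The causes were not tested. Depth limits the *Kcnj8* class and untreated *Chat* neurons most, where 1 UMI stood for 16.0 and 27.8 CPM in *Kcnj8* cells of the untreated and 4OH-tamoxifen libraries and 15.1 CPM in untreated *Chat* neurons.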

Other observations

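Barcodes that the filters removed also held the 10 genes, at levels that differed by filter. Barcodes with over 20% mitochondrial UMIs, often read as damaged cells, had a summed level of 173 CPM (147 to 203, 95% Poisson) in the untreated and 90.2 CPM (71.4 to 112) in the 4OH-tamoxifen library, below the 1062 and 422 CPM of the filtered cells. Barcodes with fewer than 800 genes had 88.7 CPM (59.9 to 127) and 195 CPM (172 to 220). Barcodes with over 50 hemoglobin UMIs had 723 CPM (655 to 795) and 586 CPM (536 to 639.8), and in them *Dusp1* measured 173 and 190.0 CPM, against 92.8 and 43.9 CPM in filtered cells. The doublets called by Scrublet had 1108 CPM (788 to 1515) from 6 barcodes and 443 CPM (417 to 470.4) from 544 barcodes.

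*Arc*, a cytoskeletal gene induced by neuronal activity and chosen here after its values were seen, measured 20.1 and 27.5 CPM in *Mog* cells, the oligodendrocyte-like class, and 9.42 and 11.6 CPM over all filtered cells. In *C1qa* cells the chemokine genes *Ccl3* (357 and 338 CPM) and *Ccl4* (319 and 382 CPM), which are members of the wider list, had ratios of 1.06 and 0.835.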
